A study of Mus musculus with 12 samples.

Results

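The 47 genes described here encode the machinery that copies DNA and the regulators that start S phase. They were chosen by name, from their known roles in origin licensing, the replication fork, nucleotide supply and the control of S-phase entry, out of the 55335 genes counted in each library. All 47 were found in the count files, and all 47 were among the 16597 genes that passed the filter on low counts. By role, 10 act in origin licensing, 6 in helicase activation, 15 as polymerases, clamp and strand-joining factors, 4 in nucleotide supply, 6 in S-phase chromatin and checkpoint control, and 6 as E2F factors and E-type cyclins.

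DNA replication is prepared in G1, when the origin recognition complex, Cdc6 and Cdt1 load the Mcm2 to Mcm7 ring onto DNA. At S-phase entry Cdc45 and the GINS complex turn that ring into an active helicase, and polymerases follow it, held to DNA by the Pcna clamp. Many of these genes are transcribed in late G1 by E2F factors, which the retinoblastoma protein restrains until cyclin-dependent kinases release them, so their transcripts are abundant in dividing cultures and scarce in resting ones. Fibro-adipogenic progenitors (FAPs), the mesenchymal cells between muscle fibres, rest in healthy muscle and divide after injury or in culture.

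The 12 libraries were RNA-seq of FAPs sorted from mouse limb muscle as Lin- Vcam- Sca1+ cells and cultured in alpha-MEM with 20% fetal bovine serum, in 4 groups of 3. Smn1OE_K186R cells carried the K186R point mutant of human SMN, an assembly factor for spliceosomal snRNPs, on a vector, after 4-hydroxytamoxifen (4-OHT). Smn1OE cells were given 4-OHT and unmutated human SMN on a vector. Bap1KO cells were given 4-OHT alone, for deletion of Bap1, which removes ubiquitin from histones and other nuclear proteins. WT cells were given ethanol, and WT is used here as the name of that group. The dose of 4-OHT was 1 µM in each group that had it, and the medium was changed after 24 hours in all 4 groups. Both SMN groups thus had the treatment meant to delete Bap1, no group had an empty vector, and none had 4-OHT with Bap1 intact, so effects of SMN and vector, or of deletion and 4-OHT, cannot be told apart. The treatment text names Rosa-CreER as the driver, whereas the source label names Prrx1Cre with floxed Bap1 (Prrx1Cre;Bap1f/f). The labels do not say whether replicates came from separate animals, so p-values measure the spread between these samples.

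WT and Bap1KO shared culture media batches A, B and C, and both SMN groups shared batches D, E and F, for replicates 1, 2 and 3 in that order. Setting an SMN group against Bap1KO or WT therefore also compares batches, and libraries with and without expression of the Y-linked gene Eif2s3y (57.9 to 69.7 CPM, counts scaled to library size, in the SMN libraries, and no reads in Bap1KO and WT). These cannot be told apart from SMN. Libraries held 51.2 to 68.2 M counts. Bap1 averaged 45.3 CPM in Smn1OE_K186R, 49.1 in Smn1OE, 40.3 in Bap1KO and 50.5 in WT. Bap1 was called lower in Bap1KO than in WT by 0.32 on the log2 scale (edgeR, adjusted p = 0.0139), and counts over the whole gene do not show which part was removed. Counts at Smn1 averaged 3940 CPM in Smn1OE_K186R, 4757 CPM in Smn1OE, 32.9 CPM in Bap1KO and 33.6 CPM in WT. All 12 FAP and fibroblast markers were detected, with summed levels of 10472 to 11905 CPM in Smn1OE_K186R, 9264 to 11625 in Smn1OE, 17988 to 26851 in Bap1KO and 25425 to 34472 in WT. Collagens were a large part of these sums, and Col1a1 averaged 3763, 3181, 9441 and 12679 CPM in the same order. Not all markers ran that way, as Cd34 averaged 60.9, 65.3, 23.5 and 44.1 CPM.

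Promoter sequences of the genes were described as well, without a test. Many of the genes were known as E2F targets when chosen, and a link of motifs to levels was not tested. RefSeq windows of GRCm38.p6, from 250 bases before to 50 after a gene's start, were at hand for 39 of the 47 genes, and not for Gins4, Prim2, Pole, Mcm4, Rfc2, Gins1, Gins2 and Ccne2. The E2F motif was searched as TTTCCCGC, TTTCGCGC, TTTGCCGC and TTTGGCGC on both strands. It was found in 18 of the 39 genes (46.2%), in 8 of 35 other replication genes (22.9%), in 1 of 28 mitosis genes (3.57%) and in 704 of all 27025 genes with a window (2.6%). Windows are shown for 4 genes with a match, the first in order among those whose values are given in every library. They are Mcm6 and Mcm7 of the helicase ring, Rfc3 of the clamp loader, and Cdt1, which did not follow most others. Dtl and Pola1 also held a match and are not shown. Capitals mark E2F matches, and each window is written 5′ to 3′ on the strand of its gene. They lie at chr1:128359656-128359955 (minus strand) for Mcm6, chr5:138171834-138172133 (minus) for Mcm7, chr5:151651159-151651458 (minus) for Rfc3 and chr8:122567765-122568064 (plus) for Cdt1.
Mcm6: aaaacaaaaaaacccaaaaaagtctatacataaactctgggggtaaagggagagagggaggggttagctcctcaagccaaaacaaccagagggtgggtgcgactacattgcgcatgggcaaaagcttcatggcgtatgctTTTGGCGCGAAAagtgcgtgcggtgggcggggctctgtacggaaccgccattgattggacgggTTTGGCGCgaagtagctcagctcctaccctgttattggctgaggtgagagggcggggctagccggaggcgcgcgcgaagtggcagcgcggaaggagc
Mcm7: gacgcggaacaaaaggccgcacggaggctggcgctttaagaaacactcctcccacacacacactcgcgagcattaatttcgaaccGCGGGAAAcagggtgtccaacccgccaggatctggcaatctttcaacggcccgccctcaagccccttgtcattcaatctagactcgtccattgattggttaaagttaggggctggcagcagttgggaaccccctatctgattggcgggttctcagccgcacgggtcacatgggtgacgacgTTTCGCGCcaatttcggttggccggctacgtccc
Rfc3: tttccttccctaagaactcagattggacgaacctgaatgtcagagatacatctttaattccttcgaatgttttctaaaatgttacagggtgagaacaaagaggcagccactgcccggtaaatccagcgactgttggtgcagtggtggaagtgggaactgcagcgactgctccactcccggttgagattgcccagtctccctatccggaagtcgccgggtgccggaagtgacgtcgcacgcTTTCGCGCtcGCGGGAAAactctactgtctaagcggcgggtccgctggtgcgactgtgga
Cdt1: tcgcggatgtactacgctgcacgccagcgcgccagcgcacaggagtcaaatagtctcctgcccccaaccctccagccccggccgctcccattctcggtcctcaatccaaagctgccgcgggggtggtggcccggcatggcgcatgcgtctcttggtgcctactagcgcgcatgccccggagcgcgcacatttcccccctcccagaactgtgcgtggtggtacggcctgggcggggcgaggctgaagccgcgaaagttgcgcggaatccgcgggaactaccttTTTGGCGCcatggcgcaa

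Mcm6 held 3 matches, of which a TTTGGCGC and a TTTCGCGC on the opposite strand overlap, and the third stands alone. Mcm7 and Rfc3 held 2 each, and Cdt1 held 1. The CHR motif TTTGAA, known from genes of late cell cycle stages, was found in 7 of the 39 genes (17.9%), against 71.4% of the mitosis genes and 20.2% of all genes. The CCAAT box was found in 64.1%, against 82.1% of the mitosis genes and 41.1% of all genes. A match describes letters in a window and shows no binding.

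**Figure D1:**
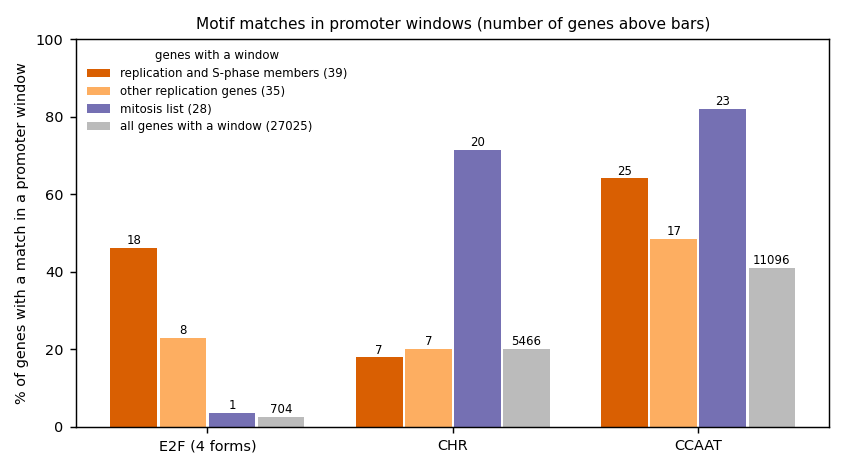
Share of genes (percent, vertical axis) whose promoter window holds an E2F form, the CHR motif or the CCAAT box, for the replication and S-phase genes, the other replication genes, the mitosis list and all genes with a window. Numbers above bars are genes with a match, and the E2F forms were in 18 of 39 replication and S-phase genes, against 704 of 27025 of all genes.

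Across the 12 libraries the genes moved largely as a block, lowest in the SMN groups and highest in WT. As log2(CPM + 0.1) minus each gene's own mean over the 12 libraries, the 47 genes averaged -0.46, -0.03 and -0.54 in Smn1OE_K186R replicates 1 to 3, and -0.56, -0.05 and -0.60 in Smn1OE. On the same scale they averaged 0.51, 0.01 and 0.10 in Bap1KO and 0.78, 0.38 and 0.46 in WT. Every SMN library lay below every Bap1KO and WT library on this mean, while Bap1KO replicate 1 lay above WT replicates 2 and 3. The gap was small for replicate 2 and did not hold in every role. Smn1OE_K186R replicate 2 lay above Bap1KO replicate 2 in origin licensing, chromatin and checkpoint, and E2F and cyclin genes. In a bulk sample, fewer cells in S phase and less of each transcript per cell cannot be told apart.

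**Figure D2:**
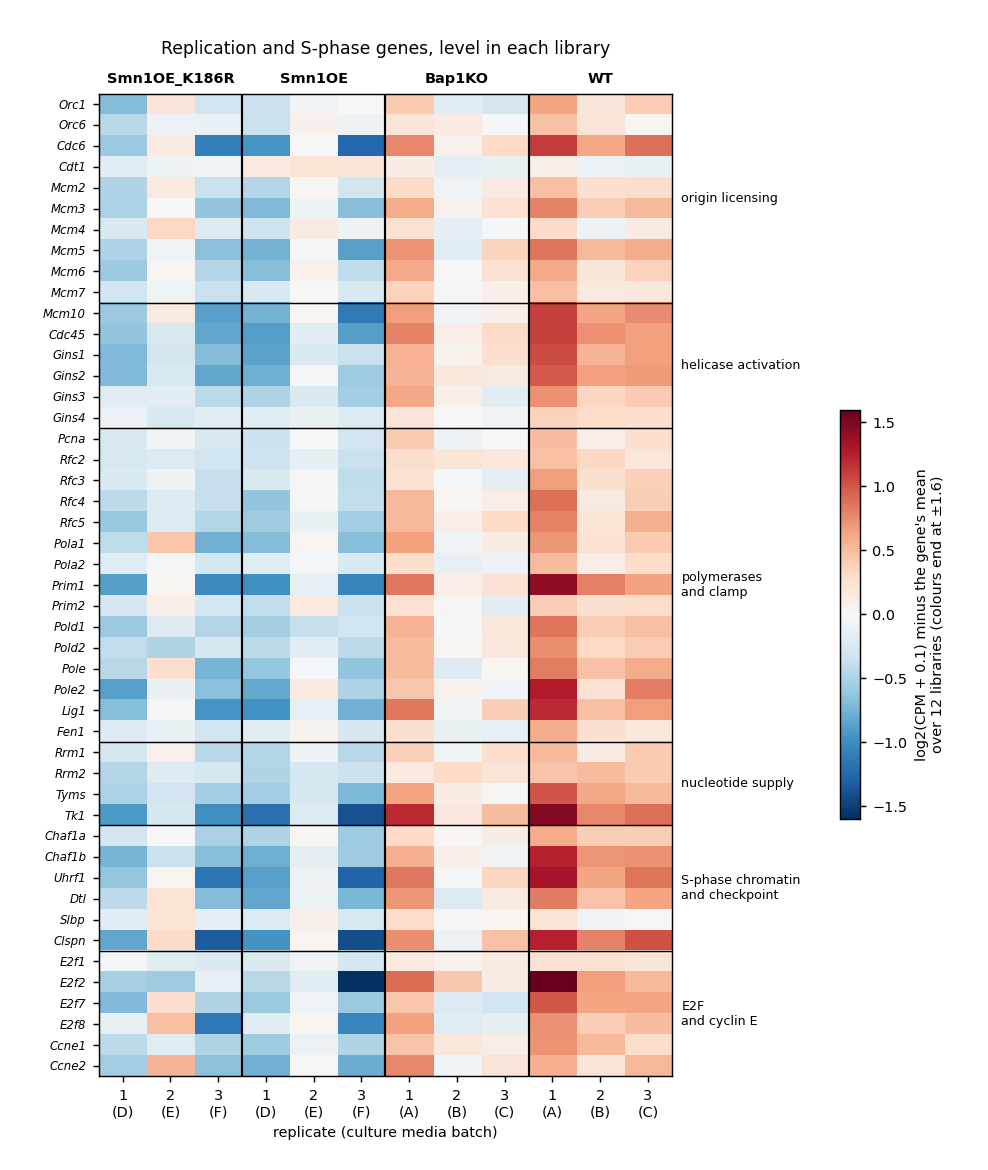
Level of each of the 47 genes (rows, by role) in each of the 12 libraries (columns, with the media batch in brackets), as log2(CPM + 0.1) minus the gene's mean over the libraries. Red is above and blue below that mean. Replicate 2 of both SMN groups and replicate 1 of Bap1KO and WT stand out as the least blue or most red of their group.

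One replicate stood apart in each group, and it was the same media batch in both groups of a pair. Batch E, replicate 2, gave the highest value of its group for 41 of 47 genes in Smn1OE_K186R and 45 of 47 in Smn1OE, whereas it did so for 38.3% and 34.7% of all genes tested. Batch A, replicate 1, gave the highest value for 46 of 47 genes in Bap1KO and 45 of 47 in WT, against 35.8% and 30.8% of all genes. The spread within a group was thus shared by nearly all of the genes. Counts of called genes are therefore given with and without the libraries that move them.

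Nucleotide supply held the 2 most abundant transcripts by CPM, Rrm2 and Rrm1. Rrm2, the small subunit of ribonucleotide reductase that limits dNTP production, had the highest level of all 47 genes, at 84.5 CPM per kb of exon. It had 164, 196 and 187 CPM in Smn1OE_K186R, 163, 185.97 and 178 CPM in Smn1OE, 252, 282 and 262 CPM in Bap1KO, and 312, 323 and 304 CPM in WT. The SMN groups, Bap1KO and WT formed 3 levels that did not overlap, and unlike most of the genes Rrm2 was not highest in replicate 1 of Bap1KO or WT. Bap1KO lay below WT without overlap for 10 of the 47 genes (21.3%), near the 17.8% of all genes tested. Rrm1, the large subunit, had 92.6, 118 and 82.6 CPM in Smn1OE_K186R, 80.8, 106 and 82.5 CPM in Smn1OE, 146, 108 and 135 CPM in Bap1KO, and 160, 122 and 150 CPM in WT. Tyms, thymidylate synthase, had 16.1, 18.5 and 15.6 CPM in Smn1OE_K186R, 15.5, 19 and 13.8 CPM in Smn1OE, 35.4, 24.9 and 23.3 CPM in Bap1KO, and 46.1, 35.1 and 32.7 CPM in WT. For Tyms all 6 SMN libraries lay below all Bap1KO and WT libraries, and for Rrm1 they lay below WT while Smn1OE_K186R overlapped Bap1KO. Tk1, the thymidine kinase of the salvage pathway, had 9.83, 15.4 and 9.39 CPM in Smn1OE_K186R, 8.09, 16.1 and 7.04 CPM in Smn1OE, 42.6, 21 and 26.5 CPM in Bap1KO, and 51.8, 32 and 34.4 CPM in WT. Its SMN libraries lay below all others, and Bap1KO overlapped WT.

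In origin licensing the Mcm ring genes were the most abundant by CPM. Mcm6 had 42.8, 66.4 and 46.4 CPM in Smn1OE_K186R, 40.2, 67.5 and 48.4 CPM in Smn1OE, 98.3, 64.7 and 76.2 CPM in Bap1KO, and 97.7, 73.6 and 83.2 CPM in WT. Mcm7 had 44.2, 52.1 and 42.9 CPM in Smn1OE_K186R, 46.4, 55.2 and 46.3 CPM in Smn1OE, 70.3, 53.8 and 58.2 CPM in Bap1KO, and 76.5, 61.3 and 61.6 CPM in WT. For both genes the SMN libraries lay below all WT libraries, and batch E of the SMN groups came near or above the lowest Bap1KO library. Cdt1, the loading factor that geminin inhibits and that is degraded in S phase, ran differently. It had 17.9, 19.1 and 19.4 CPM in Smn1OE_K186R, 22.5, 23.5 and 23.1 CPM in Smn1OE, 21.8, 18.3 and 18.5 CPM in Bap1KO, and 21.6, 18.9 and 18.7 CPM in WT. The 3 Smn1OE libraries lay above all others, and the other 3 groups overlapped. The other 7 licensing genes averaged between 2.81 CPM (Orc1 in Smn1OE_K186R) and 63.3 CPM (Mcm3 in WT).

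Helicase activation genes were lowest in the SMN libraries as well. Gins2, a GINS subunit, had 11.8, 16.3 and 10.8 CPM in Smn1OE_K186R, 11.2, 19 and 13 CPM in Smn1OE, 28.3, 21.8 and 21.3 CPM in Bap1KO, and 38.2, 30.6 and 31.3 CPM in WT. Gins4, another subunit, had 28.3, 25.3 and 26.8 CPM in Smn1OE_K186R, 26.3, 28.2 and 26 CPM in Smn1OE, 34.9, 30 and 29 CPM in Bap1KO, and 38.7, 36.9 and 36.2 CPM in WT. Both formed 3 levels without overlap, SMN groups, Bap1KO and WT, with a wider span for Gins2 than for Gins4. Gins1, Gins3, Cdc45 and Mcm10, which joins the helicase at activation, averaged between 2.13 CPM (Gins1 in Smn1OE_K186R) and 18.2 CPM (Cdc45 in WT).

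Among polymerases and clamp genes, Pcna, the sliding clamp, had 66.2, 75.9 and 65.9 CPM in Smn1OE_K186R, 62.2, 78.5 and 63.5 CPM in Smn1OE, 105, 74.2 and 78.2 CPM in Bap1KO, and 111, 84.6 and 95.2 CPM in WT. Rfc2, a subunit of the clamp loader, had 32.9, 33.9 and 31.6 CPM in Smn1OE_K186R, 31.2, 35.6 and 30.7 CPM in Smn1OE, 48, 45.1 and 44.3 CPM in Bap1KO, and 54.7, 49.4 and 44.6 CPM in WT. Pcna of the SMN groups lay below WT and overlapped Bap1KO, whereas Rfc2 of the SMN groups lay below both. Rfc3, another loader subunit, had 12.3, 13.7 and 11.1 CPM in Smn1OE_K186R, 12.1, 14.2 and 10.9 CPM in Smn1OE, 17.1, 14.2 and 13 CPM in Bap1KO, and 23, 17.3 and 18.8 CPM in WT. Rfc5, a further one, had 10.3, 13.6 and 11.4 CPM in Smn1OE_K186R, 10.7, 14.6 and 10.8 CPM in Smn1OE, 22.8, 17 and 19.7 CPM in Bap1KO, and 27.5, 18.5 and 23.5 CPM in WT. Rfc5 of the SMN groups lay below every other library, and Rfc3 of Bap1KO lay below WT with no overlap. Pold2, the small subunit of polymerase delta, had 12.9, 12.1 and 14 CPM in Smn1OE_K186R, 12.6, 15 and 12.6 CPM in Smn1OE, 24, 17.3 and 19.1 CPM in Bap1KO, and 28.5, 21.2 and 22.6 CPM in WT. Pola1, the catalytic subunit of polymerase alpha, had 5.29, 9.65 and 4.12 CPM in Smn1OE_K186R, 4.33, 7.29 and 4.37 CPM in Smn1OE, 11.2, 6.71 and 7.7 CPM in Bap1KO, and 11.6, 8.35 and 9.46 CPM in WT. Pold2 of the SMN groups lay below all other libraries, while replicate 2 of Smn1OE_K186R brought Pola1 into the range of WT.

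The chromatin and checkpoint genes differed widely in how far the groups stood apart. Chaf1b, a subunit of the CAF-1 complex that deposits histones behind the fork, had 7.85, 10.3 and 8.23 CPM in Smn1OE_K186R, 7.66, 11.8 and 8.9 CPM in Smn1OE, 19.8, 14.2 and 12.7 CPM in Bap1KO, and 31.1, 21.7 and 22.1 CPM in WT. Chaf1a, its partner, had 22.7, 27.7 and 19.5 CPM in Smn1OE_K186R, 20, 28.7 and 18.8 CPM in Smn1OE, 34.8, 28.2 and 30.4 CPM in Bap1KO, and 42.3, 36.7 and 36.9 CPM in WT. In both genes Bap1KO lay below WT without overlap. Dtl, the substrate receptor that directs Cdt1 to degradation, had 7.28, 11.4 and 6.01 CPM in Smn1OE_K186R, 5.44, 9.1 and 5.83 CPM in Smn1OE, 15.9, 8.33 and 10.8 CPM in Bap1KO, and 17.4, 13.4 and 15.1 CPM in WT. Slbp, which binds the stem-loop of histone mRNAs, had 29.7, 38.9 and 30.1 CPM in Smn1OE_K186R, 28.8, 35.3 and 28 CPM in Smn1OE, 40.9, 33.8 and 34 CPM in Bap1KO, and 38.7, 32.1 and 33.6 CPM in WT. All 4 groups overlapped for Slbp, and the SMN groups lay below WT for Dtl.

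Of the regulators, E2f1, an activating E2F factor, had 46.8, 41.8 and 40.8 CPM in Smn1OE_K186R, 40.9, 45.9 and 39.2 CPM in Smn1OE, 53.6, 50 and 52.8 CPM in Bap1KO, and 56.1, 56.5 and 54.9 CPM in WT. Ccne1, a cyclin that activates Cdk2 at the G1/S boundary, had 27.9, 32.6 and 26.8 CPM in Smn1OE_K186R, 25.1, 34.9 and 26.8 CPM in Smn1OE, 51.2, 42.2 and 39.8 CPM in Bap1KO, and 61.5, 54.1 and 45.5 CPM in WT. E2f1 formed 3 levels without overlap over a narrow span, and Ccne1 of the SMN groups lay below all other libraries. The step of E2f1 from WT to Bap1KO was not called (log2 fold change -0.10 ± 0.08, edgeR, adjusted p = 0.453), nor with the replicate block (-0.08 ± 0.05, edgeR, adjusted p = 0.267). Ccne2, the other E-type cyclin, had 7.05, 15.3 and 6.61 CPM in Smn1OE_K186R, 6.09, 10.5 and 5.98 CPM in Smn1OE, 17.9, 10.2 and 12 CPM in Bap1KO, and 15.5, 12.1 and 15.2 CPM in WT. Its replicate 2 of Smn1OE_K186R reached the WT range. E2f2 was the scarcest of the 47 genes per length, at 0.151 CPM per kb, with as few as 1 count in a library, while E2f7 and E2f8, the repressor forms, averaged 3.22 to 8.79 CPM.

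**Figure D3:**
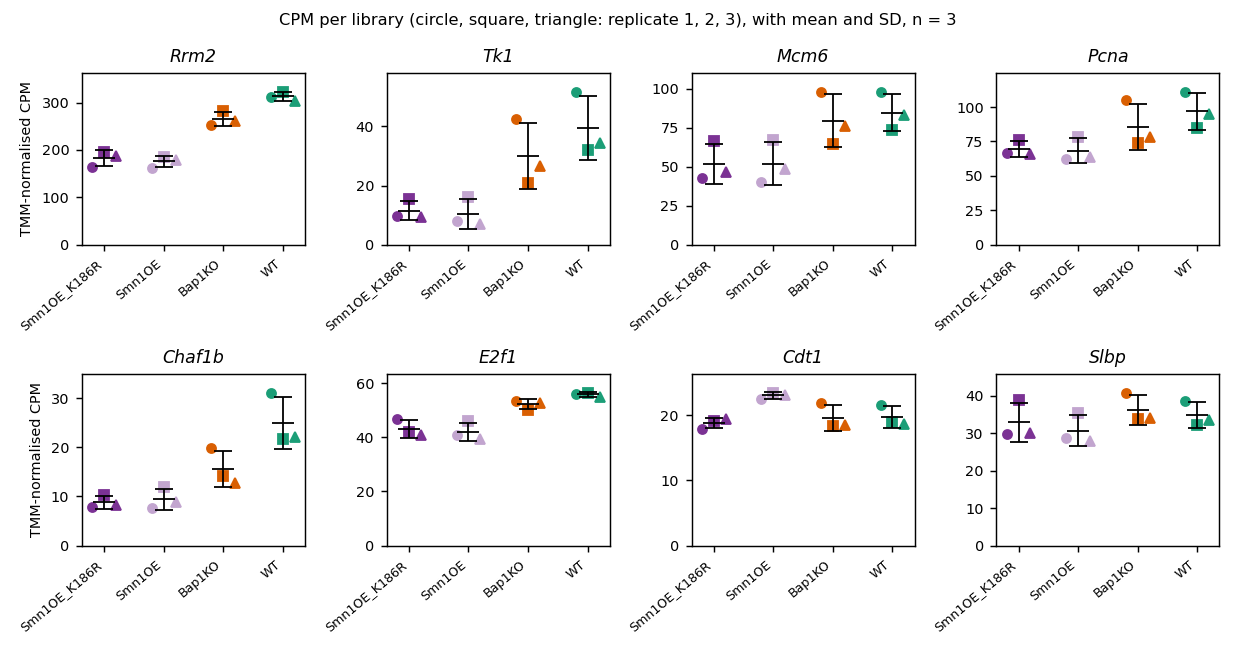
CPM of 8 genes in each library (vertical axes start at 0), by group, with the mean and SD of 3 libraries in black. Rrm2, Tk1, Mcm6, Pcna, Chaf1b and E2f1 have lower means in both SMN groups, with every SMN library below every WT library. For Slbp the means differ little and all 4 groups overlap, and for Cdt1 Smn1OE holds the highest values.

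Against WT, the SMN groups had lower levels of nearly all of the genes. In Smn1OE_K186R 41 of 47 genes fell and none rose, with a median log2 fold change of -0.85, while 26.5% of all genes tested were called lower, 24% higher, and their median was -0.02. In Smn1OE 41 of 47 fell and none rose, with a median of -0.89, against 26.6% lower and 23.8% higher of all genes and a median of -0.02. These contrasts share the WT libraries. Every Smn1OE_K186R library lay below every WT library for 40 of the 47 genes (30.9% of all genes), and every Smn1OE library did for 43 (32.7% of all genes). Without media batch E, 43 of 47 fell in Smn1OE_K186R (23.9% of all genes) and 44 of 47 in Smn1OE (25.9%). Batch E held the highest SMN values of most of these genes, so leaving it out lowers the SMN means. These counts therefore do not show how robust the calls are, and batch A was not left out as a pair. By role, all 6 helicase genes and all 4 nucleotide genes fell in both groups. Of the polymerases and clamp genes 14 fell in Smn1OE_K186R and 15 in Smn1OE, and of the licensing genes 8 and 6 of 10. Of the chromatin and checkpoint genes 5 of 6 fell in each, and of the E2F and cyclin genes 4 and 5 of 6.

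The lowest adjusted p values in both groups were those of Rrm2, Chaf1b, Rfc2 and Tyms. In Smn1OE_K186R against WT, Rrm2 fell by 0.78 ± 0.08 (log2 fold change ± SE, edgeR's quasi-likelihood test with Benjamini-Hochberg adjustment, adjusted p = 3.51e-05), and in Smn1OE by 0.83 ± 0.08 (adjusted p = 2.4e-05). Chaf1b fell by 1.51 ± 0.21 in Smn1OE_K186R (adjusted p = 0.000188) and was 2.64-fold lower in Smn1OE (adjusted p = 0.000276). Tyms fell by 1.18 ± 0.18 (adjusted p = 0.000272) and 1.24 ± 0.18 (adjusted p = 0.000201), in the same order. Rfc2 fell less, by 0.60 ± 0.09 in Smn1OE_K186R and 0.61 ± 0.09 in Smn1OE, with adjusted p = 0.000228 and 0.000191. The other genes among the 12 lowest adjusted p in Smn1OE_K186R were Gins2 (-1.36), Pold1 (-1.01), Pold2 (-0.89), Gins1 (-1.35), Ccne1 (-0.88), Cdc45 (-1.40), Gins4 (-0.48) and Rfc5 (-0.98), with adjusted p from 0.000274 to 0.000814. In Smn1OE they were Pold1 (2-fold lower), Cdc45 (-1.46), Ccne1 (-0.89), Gins2 (-1.21), Pold2 (-0.85), Gins4 (-0.48), Gins1 (-1.26) and Tk1 (-1.92), with adjusted p from 0.000427 to 0.000839. Tk1 in Smn1OE was 3.78-fold lower than in WT.

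A small set did not pass the test against WT, some with estimates as large as those of called genes. In both SMN groups Mcm4, a subunit of the Mcm ring, Cdt1, Slbp and E2f8 were not called. In Smn1OE_K186R Ccne2 and Pola1 were also not called, nor in Smn1OE were Orc1 and Orc6, parts of the origin recognition complex. Of these, E2f8 in both groups, Ccne2 and Pola1 in Smn1OE_K186R, and Orc1, Orc6 and Slbp in Smn1OE passed under at least 1 alternative, and Mcm4 passed under none that was run. E2f8 had log2 fold changes of -0.67 ± 0.38 in Smn1OE_K186R and -0.88 ± 0.38 in Smn1OE. In Smn1OE_K186R Ccne2 had -0.56 ± 0.33 and Pola1 -0.62 ± 0.31, and in Smn1OE Orc1 had -0.56 ± 0.26 and Orc6 -0.35 ± 0.14. The estimates of Mcm4, Slbp and Cdt1 were nearer to 0. Mcm4 differed by -0.15 ± 0.17 in Smn1OE_K186R (edgeR, adjusted p = 0.499) and by -0.21 ± 0.17 in Smn1OE (edgeR, adjusted p = 0.321). Its ring partners Mcm2, Mcm3, Mcm5, Mcm6 and Mcm7 are set beside it here after their values were seen. They fell by 0.52 ± 0.13 (Mcm7) to 1.04 ± 0.26 (Mcm5) in Smn1OE_K186R. In Smn1OE they fell by 0.43 ± 0.13 (Mcm7) to 1.16 ± 0.26 (Mcm5). Slbp differed by -0.08 ± 0.13 in Smn1OE_K186R (edgeR, adjusted p = 0.636) and -0.18 ± 0.13 in Smn1OE (edgeR, adjusted p = 0.275). Cdt1 differed by -0.07 ± 0.09 in Smn1OE_K186R (edgeR, adjusted p = 0.544). In Smn1OE its difference was 0.22 ± 0.09 (edgeR, adjusted p = 0.0636), and it was called higher with DESeq2 (adjusted p = 0.0314), while its adjusted p ran from 0.0314 to 0.2 across all alternatives run. It was also called without WT replicate 1 (adjusted p = 0.0387) and without Bap1KO replicate 1 (adjusted p = 0.043).

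**Figure D4:**
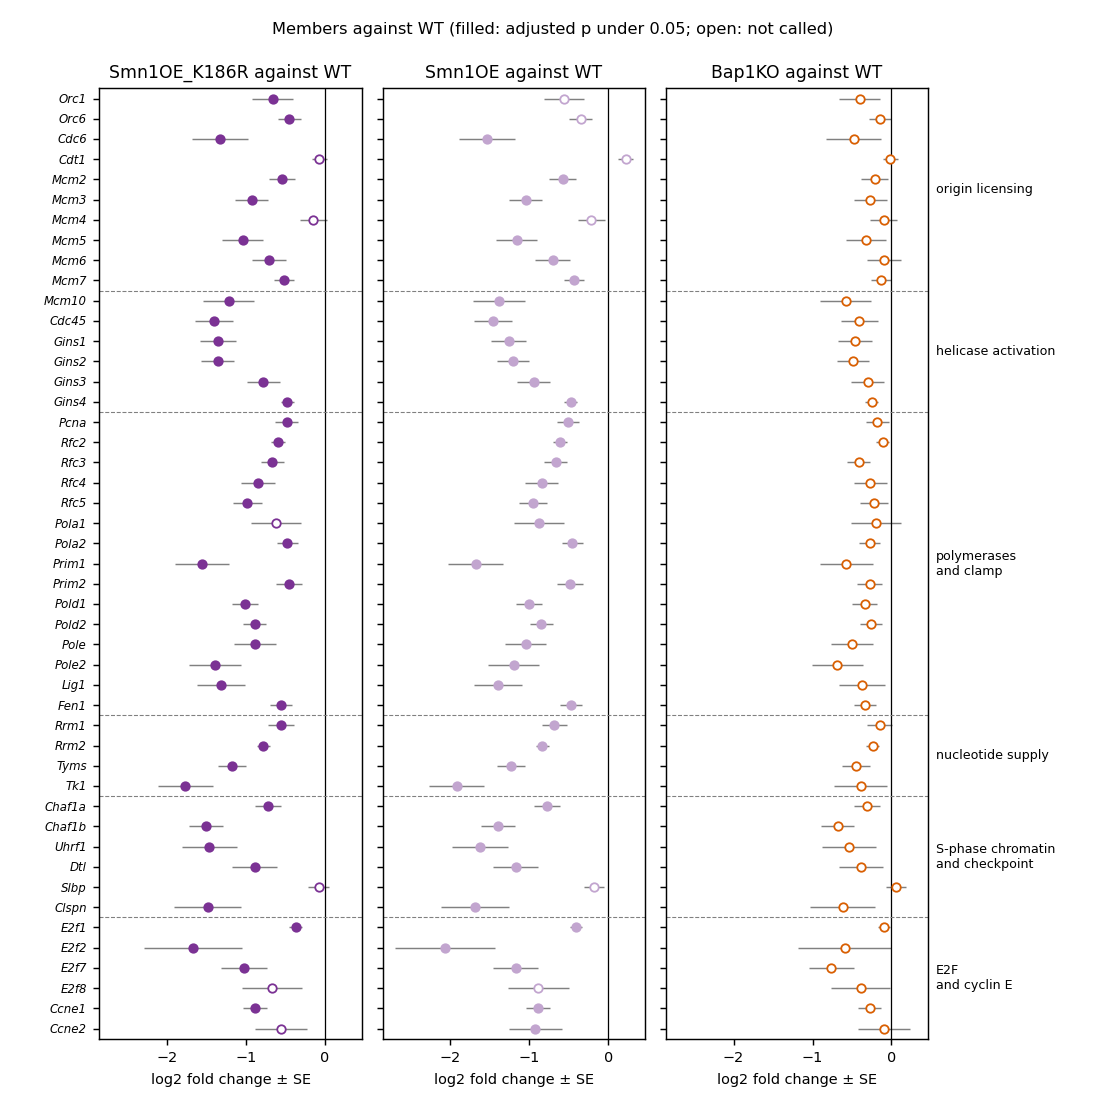
Log2 fold change against WT with SE (horizontal axis) of each of the 47 genes, by role, in Smn1OE_K186R, Smn1OE and Bap1KO. Filled points have an adjusted p under 0.05: 41 in each SMN group and none in Bap1KO, where 46 of the 47 estimates are below 0. The fit shown has no batch block. With the replicate block, which WT and Bap1KO allow because they share batches, most of the 47 genes were called lower in Bap1KO.

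Against Bap1KO, which had the same 4-OHT treatment but neither the vector nor the batches, fewer genes passed. Bap1 itself averaged 45.3 CPM in Smn1OE_K186R and 49.1 CPM in Smn1OE, against 40.3 CPM in Bap1KO. It was called higher in Smn1OE than in Bap1KO (log2 fold change 0.28 ± 0.07, edgeR, adjusted p = 0.00924) and not called in Smn1OE_K186R (0.17 ± 0.07, edgeR, adjusted p = 0.081), so these counts do not show how far the deletion is shared. In Smn1OE_K186R 19 of 47 fell and none rose, with a median of -0.50, against 16.5% lower and 16.1% higher of all genes and a median of -0.01. In Smn1OE 23 of 47 fell and none rose, with a median of -0.60, against 17.7% lower and 15.8% higher of all genes and a median of -0.01. These contrasts share the Bap1KO libraries. Without batch E, which held the highest SMN values of most of these genes, 31 fell in Smn1OE_K186R (14% of all genes) and 35 in Smn1OE (17.9%). Single libraries moved both counts. That of Smn1OE_K186R was 29 without Smn1OE_K186R replicate 2, 12 without its replicate 3 and 11 without Bap1KO replicate 1. That of Smn1OE was 10 without Smn1OE replicate 1, 11 without its replicate 3 and 10 without Bap1KO replicate 1, where 1 gene was called higher.

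Rrm2 had the lowest adjusted p in both. It fell by 0.54 ± 0.08 in Smn1OE_K186R (edgeR, adjusted p = 0.00116) and by 0.60 ± 0.08 in Smn1OE (edgeR, adjusted p = 0.000645). Rfc2 followed, falling by 0.48 ± 0.09 in Smn1OE_K186R and 0.50 ± 0.09 in Smn1OE (edgeR, adjusted p = 0.00243 and 0.00185). Tk1 fell the most of the called genes, by 1.38 ± 0.34 in Smn1OE_K186R and by 1.53 ± 0.35 in Smn1OE (edgeR, adjusted p = 0.0105 and 0.00627). In Smn1OE_K186R the next by adjusted p were Pold2 (-0.63), Rfc5 (-0.76), Gins2 (-0.87), Cdc45 (-0.99), Tyms (-0.74), Pold1 (-0.67), Ccne1 (-0.61), Gins1 (-0.89) and Chaf1b (-0.83), with adjusted p from 0.00721 to 0.0121. In Smn1OE they were Tyms (-0.79), Cdc45 (-1.05), Ccne1 (-0.62), Rfc5 (-0.72), Pold2 (-0.59), Pold1 (-0.66), E2f1 (-0.31), Mcm3 (-0.78) and Gins1 (-0.80), with adjusted p from 0.00622 to 0.0182. All 4 nucleotide genes fell in Smn1OE and 3 of 4 in Smn1OE_K186R, against 4 of 10 licensing genes in each.

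Between Bap1KO and WT, which share media batches, the direction was nearly uniform and the size small. In Bap1KO 46 of 47 estimates were below 0, with a median of -0.31 (all genes 0.00), but no gene was called by edgeR, 8 had an unadjusted p under 0.05, and DESeq2 called 1. Of all genes 6.37% were called lower and 3.36% higher. Every Bap1KO library lay below every WT library for 10 of the 47 genes (21.3%), near the share of all genes (17.8%). Within batches A, B and C the median log2 ratio of Bap1KO to WT over the 47 genes was -0.27, -0.32 and -0.32, and 43 genes were lower in all 3 batches, as were 30.7% of all genes. A fit with the media batch as replicate block, over those 6 libraries, called 31 of 47 lower and none higher, while 18.5% of all genes were called lower and 15.4% higher in it. By role these were 4 of 10 licensing, 5 of 6 helicase, 11 of 15 polymerase and clamp, 3 of 4 nucleotide, 5 of 6 chromatin and checkpoint, and 3 of 6 E2F and cyclin genes. Without the block, leaving out Bap1KO replicate 1 gave 4 genes called lower.

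The genes with the lowest adjusted p in Bap1KO against WT came from 4 roles. Chaf1b had a log2 fold change of -0.68 ± 0.21 (edgeR, adjusted p = 0.0594), and blocked it fell by 0.67 (edgeR, adjusted p = 0.00021). Gins4 had -0.25 ± 0.08 (edgeR, adjusted p = 0.0796, blocked 0.0152). Rrm2 had -0.24 ± 0.08 (edgeR, adjusted p = 0.0941, blocked 0.0111). Rfc3 had -0.41 ± 0.15 (edgeR, adjusted p = 0.0967, blocked 0.00501). Slbp was the only one of the 47 with a positive estimate, 0.06 ± 0.13 (edgeR, adjusted p = 0.828).

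Between Smn1OE_K186R and Smn1OE no gene of the 47 was called in either direction, and neither was any of the 16597 genes tested (0% lower and 0% higher). The median log2 fold change of the 47 genes was 0.05, with a range of -0.29 to 0.40, and 1 gene had an unadjusted p under 0.05. That gene was Cdt1, at -0.29 ± 0.09 (edgeR, unadjusted p = 0.00806, adjusted p = 0.997). The next by p were Ccne2 (0.36 ± 0.33), Dtl (0.28 ± 0.28) and Pola1 (0.25 ± 0.32), all at an adjusted p of 0.997 with edgeR. Their signs turned when Smn1OE_K186R replicate 2 alone was left out, which breaks the pair of batch E, and stayed positive when both libraries of batch E were left out (0.18, 0.24 and 0.11) and with the replicate block (0.31, 0.26 and 0.21). DESeq2 and the replicate block called none of the 47, and the block called 0.00633% lower and 0.215% higher of all genes. A missed threshold does not show that the forms of SMN act alike. The SE of single genes ran from 0.08 (E2f1) to 0.42 (Clspn) and 0.65 (E2f2, the scarcest gene per length).

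**Figure D5:**
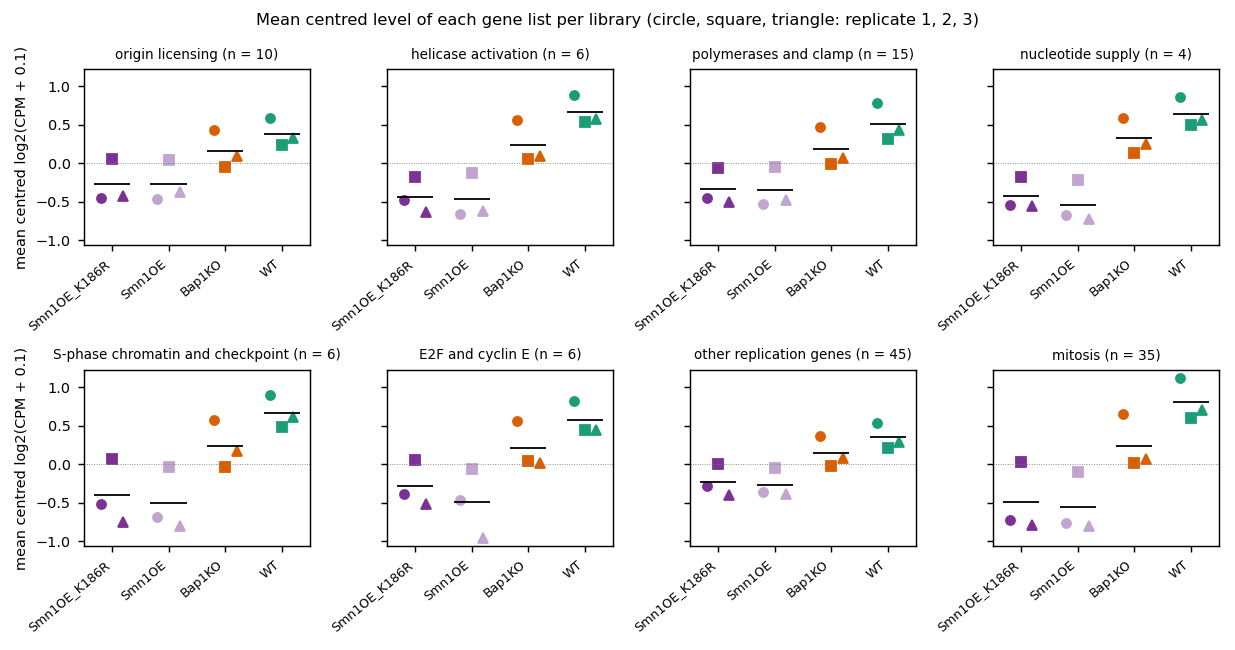
Mean of log2(CPM + 0.1) minus each gene's mean (vertical axis) for each role, the other replication genes and the mitosis list, one point per library and a bar at the group mean. In every panel the means of the SMN groups lie lowest and that of WT highest, and replicate 2 (squares) is the highest of both SMN groups. Single libraries overlap in several panels. In origin licensing, for example, replicate 2 of Smn1OE_K186R lies at 0.06 and replicate 2 of Bap1KO at -0.05.

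Other cell cycle genes were counted in the same way. Of 45 other replication genes, 27 fell and 4 rose in Smn1OE_K186R against WT, and 29 fell and 3 rose in Smn1OE, where 26.5% and 26.6% of all genes were called lower. Rpa2, a subunit of the single-strand binding protein RPA, fell by 1.49 in Smn1OE_K186R and 1.44 in Smn1OE against WT (edgeR, adjusted p = 0.000152 and 0.000166). Rrm2b, the ribonucleotide reductase subunit made in resting and damaged cells, rose by 1.22 and 1.07 (edgeR, adjusted p = 0.000104 and 0.00022), opposite to Rrm2. Rrm2b was also higher in Bap1KO than in WT, by 0.59 (edgeR, adjusted p = 0.0358). Of the 35 mitosis genes 33 and 34 fell in Smn1OE_K186R and Smn1OE against WT, with medians of -1.37 and -1.36. Of those 35, 16 and 19 fell against Bap1KO, where 16.5% and 17.7% of all genes were called lower. In Bap1KO against WT 1 of the 35 fell (6.37% of all genes), or 35 with the replicate block (18.5% of all genes). On the centred scale the mitosis genes averaged -0.49 in Smn1OE_K186R, -0.56 in Smn1OE, 0.24 in Bap1KO and 0.81 in WT, a wider span than -0.35, -0.40, 0.21 and 0.54 for the 47 replication genes.

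The regulators upstream had calls in both directions, as all genes did (26.5% lower and 24% higher in Smn1OE_K186R against WT, 26.6% lower and 23.8% higher in Smn1OE). Of 14 G1 cyclins and kinases 5 fell and 5 rose in Smn1OE_K186R against WT, and 6 fell and 3 rose in Smn1OE. Myc, a growth-promoting transcription factor, rose by 0.91 in Smn1OE_K186R, 0.96 in Smn1OE and 0.50 in Bap1KO against WT (edgeR, adjusted p = 2e-05, 1.49e-05 and 0.00575). Of 16 brakes on the G1/S step 4 fell and 4 rose in each SMN group against WT, near the shares of all genes. Cdkn1a, the inhibitor p21, averaged 997 CPM in Smn1OE_K186R, 1024 CPM in Smn1OE, 922 CPM in Bap1KO and 652 CPM in WT, and rose against WT in all 3 (edgeR, adjusted p = 0.000228, 0.000151 and 0.00686). Cdkn1c, the inhibitor p57, rose by 2.04 in Smn1OE_K186R and 2.40 in Smn1OE against Bap1KO (edgeR, adjusted p = 0.00422 and 0.00178). Rb1, the retinoblastoma protein, rose by 0.81 and 0.75 in the same contrasts (edgeR, adjusted p = 0.00131 and 0.00159). Cdkn2d, the inhibitor p19, fell by 2.28 and 2.25 against WT (edgeR, adjusted p = 3.94e-05 and 4.26e-05). The inhibitor genes Cdkn1b and Cdkn2c, named here after their values were seen, also had lower means in the SMN groups. Cdkn1b averaged 11.2 CPM in Smn1OE_K186R, 9.85 in Smn1OE and 23.5 in WT, and Cdkn2c averaged 4.35, 4.3 and 14.1 CPM.

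Other measures differed between the same groups. Mitochondrial genes took 1.94 to 2.15% of counts in Smn1OE_K186R, 1.92 to 2.05% in Smn1OE, 1.52 to 1.67% in Bap1KO and 1.29 to 1.48% in WT. The 4 tenocyte markers summed to 36.9 to 59.3 CPM in Smn1OE_K186R, 25.9 to 37.8 CPM in Smn1OE, 184 to 454 CPM in Bap1KO and 237 to 415 CPM in WT. The 8 T and NK markers summed to at most 0.264 CPM, with no read of Cd3e, Cd3g, Ncr1 and Prf1. Of the other lists, 8 myogenic markers summed to at most 176 CPM, carried by Vcam1, the only one above 1 CPM in any library, with no read of Myf5, and 8 endothelial markers reached 6.48 CPM in WT. Summed pericyte and smooth muscle markers were at 243 to 434 CPM in Smn1OE_K186R, 269 to 443 CPM in Smn1OE, 196 to 293 CPM in Bap1KO and 225 to 297 CPM in WT, and macrophage markers stayed below those levels, at up to 36.4 CPM. The part of these measures in the lower replication genes was not tested. Exons of 18 of the 47 genes overlap another gene, 16 of them only on the opposite strand, and the strand setting is not stated. Records set aside as ambiguous made up 1.79 to 2.21% per library. Reads lost to that row or shared with partners are thus not known for genes such as Rfc2, Rfc5, Tk1, Gins2, Mcm7, Slbp, Chaf1a and Cdc45. Pcna and Tyms have processed copies, and reads that fit a copy as well may be set aside as not unique or shared.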

How the data were processed

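RNA was measured in 12 libraries of 4 groups. The deposited files hold raw read counts per Ensembl gene ID, made by the authors with no normalization. Per the submitters' processing notes, HTSeq 0.9.1, STAR 2.6.1, cutadapt 1.4.2 and CASAVA 1.8.2 were used with build GRCm39, and DESeq2 is named with no version. Annotation release and strand setting are not given in the sources used here. The 5 closing rows that name no gene, 11.92% of records in Bap1KO replicate 1 for example, were left out. Symbols, exon lengths and gene overlaps came from GENCODE M21, which annotates the previous mouse build and named 55154 of 55335 IDs, and no positions were mixed.

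Counts were fitted with edgeR 4.0.16 in R 4.3.3 (TMM, filterByExpr with a minimum count of 10, quasi-likelihood test over 12 libraries with 8 residual degrees of freedom, prior count 0.125, 2-sided), with Benjamini-Hochberg adjustment over all 16597 genes tested and a threshold of 0.05. The common biological coefficient of variation was 0.179. CPM are TMM-normalised. Depth was 51.2 to 68.2 M counts per library. Media batches come from the labels and pair Bap1KO with WT and the SMN groups with each other. Deviations from group means correlated at 0.311, 0.435 and 0.24 within batches A, B and C, and at 0.384, 0.302 and 0.431 within D, E and F. Between different batches of the same paired groups they reached at most 0.0486. Pairs of an SMN library with a Bap1KO or WT library, which share no batch, reached up to 0.303. A batch block was run as the paired alternative because the labels pair these groups. Other alternatives were DESeq2 1.42.0, DESeq2 size factors, no filter, only the compared groups, limma 3.58.1 voom with batch as random effect, each library left out, and batch E left out. Scripts were tested on simulated data.

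The 47 genes and all lists were chosen with earlier results of these data known. Values per library are given for the 2 genes of each role with the highest mean CPM and the 4 with the lowest adjusted p of each comparison, and fold changes for up to 12 genes with the lowest adjusted p. Genes that went against the direction of most are named as well, and of other lists up to 3 genes with the lowest adjusted p are drawn on.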

Additional observations from a re-analysis of the deposited data

How the results depend on the processing

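Of genes called lower in Bap1KO against WT, the count of 0 became 1 with DESeq2, 2 with no filter on low counts, 31 with the replicate block, and 0 to 4 with single libraries left out. In Smn1OE against Bap1KO the 23 became 10 to 31 with single libraries left out and 35 without batch E, and the count called higher ran from 0 to 1. In Smn1OE_K186R against Bap1KO the 19 became 11 to 29, and 31 without batch E. Against WT, 1 gene, Cdt1, was called higher in Smn1OE with DESeq2, DESeq2 size factors and voom, and 0 to 1 genes with single libraries left out. Without Smn1OE_K186R replicate 2, the log2 fold changes of Ccne2, Dtl and Pola1 in Smn1OE_K186R against Smn1OE turned to -0.14, -0.032 and -0.18, and with other single libraries left out they reached 0.68, 0.55 and 0.55. Without both batch E libraries they were 0.18, 0.24 and 0.11, and with the replicate block 0.31, 0.26 and 0.21. The cause was not tested. The replicate block left the comparison of Smn1OE_K186R with Smn1OE at 0 calls among the 47 genes. With 3 libraries per group, counts of calls rest on few libraries, and the comparisons of SMN groups with Bap1KO or WT have no batch in common.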
